A study of Mus musculus with 18 samples.

Results

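The genes described here are those of a 9.09-Mb stretch of mouse chromosome 6, chr6:124996694-134087464 in GRCm38, in RNA sequencing of ileum from mice with added Ppara in the intestinal epithelium. A gene was taken as a member when it lay on chromosome 6, started within these bounds and had at least 1 read counted over the 18 libraries, whatever its biotype. The count tables listed 345 such genes, of which 210 had a count and 135 had none, against 38803 genes with a count in the whole table of 55487. The stretch was chosen from these same libraries, because several of its genes stood higher in IEC-Ppara ileum than in control ileum, and its bounds are the start of the first such gene, Pianp, and the end of the last, Gm43984. The values of IEC-Ppara vs. control given for the members are therefore a description and carry no test. The comparisons of homozygous with heterozygous mice and of females with males were not used in the choice and were tested.

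Whole-thickness ileum was collected from 6 control mice and from IEC-Ppara mice heterozygous or homozygous for the transgene (n = 6 each), aged 8 to 13 weeks, 2 weeks after 3 daily injections of 100 mg/kg tamoxifen that all mice received. The diet was chow in all groups. There were 3 females and 3 males among the controls and 2 females with 4 males in either IEC-Ppara group. All mice belonged to a C57BL/6J-based line carrying a CAG-Ppara,-EGFP cassette at the Col1a1 locus on chromosome 11, which came from 1 founder, and IEC-Ppara mice also carried Villin-CreERT2, a tamoxifen-activated Cre recombinase driven in intestinal epithelium by the Villin promoter. Controls lacked Villin-CreERT2, so that its presence, with whatever lies next to its insertion site, and the overexpression of Ppara cannot be told apart in a comparison of either IEC-Ppara group with control. The insertion site is not given in the sources used here.

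The stretch holds the natural killer (NK) gene complex, a cluster of genes for C-type lectin-like receptors. Its Klra (Ly49), Klrb1 (Nkrp1), Klrc, Klrd and Klrk genes encode receptors that NK cells and some T cells use to sense other cells, either activating or inhibiting them, and Clec2 genes interspersed among the Klrb1 genes encode ligands of the Klrb1 receptors. Some Clec2 ligands are made by gut epithelium, where they meet the receptors of intraepithelial lymphocytes. Toward the centromere lie housekeeping and cell-cycle genes, and toward the telomere lie genes for bitter taste receptors (Tas2r) and for proline-rich proteins of saliva (Prb, Prh, Prp). In inbred mice these receptor and salivary gene families differ between strains in gene number and sequence.

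The sequences below are those of the genes on which the description turns. The first 3 are promoters of protein-coding members that stood higher in both IEC-Ppara groups, the fourth is the promoter of the most abundant member, which lies among them, and all 4 are RefSeq sequence of GRCm38.p6 from 250 bases before to 50 bases after the annotated start. Capitals mark AGGTCA half-sites on either strand.

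Pianp, chr6:124996470-124996769, plus strand: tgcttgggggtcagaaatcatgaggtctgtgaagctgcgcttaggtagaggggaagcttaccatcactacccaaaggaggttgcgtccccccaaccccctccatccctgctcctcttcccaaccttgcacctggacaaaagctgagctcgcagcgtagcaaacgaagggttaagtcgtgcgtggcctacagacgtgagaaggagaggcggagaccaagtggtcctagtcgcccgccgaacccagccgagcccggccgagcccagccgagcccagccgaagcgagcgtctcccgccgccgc

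Klrb1, chr6:128723048-128723347, minus strand: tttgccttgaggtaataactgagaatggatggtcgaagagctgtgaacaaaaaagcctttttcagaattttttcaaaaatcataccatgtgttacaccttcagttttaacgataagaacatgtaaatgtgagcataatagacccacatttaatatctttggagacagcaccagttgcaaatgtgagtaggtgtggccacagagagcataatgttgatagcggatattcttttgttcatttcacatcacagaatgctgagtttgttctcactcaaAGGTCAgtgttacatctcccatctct

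Prh1, chr6:132569592-132569891, plus strand: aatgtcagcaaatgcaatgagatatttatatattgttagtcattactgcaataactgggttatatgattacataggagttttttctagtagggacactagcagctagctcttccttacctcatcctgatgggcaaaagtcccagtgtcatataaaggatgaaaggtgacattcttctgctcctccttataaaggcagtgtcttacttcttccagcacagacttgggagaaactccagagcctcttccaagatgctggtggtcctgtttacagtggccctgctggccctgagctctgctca

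Clec2h, chr6:128662135-128662434, plus strand: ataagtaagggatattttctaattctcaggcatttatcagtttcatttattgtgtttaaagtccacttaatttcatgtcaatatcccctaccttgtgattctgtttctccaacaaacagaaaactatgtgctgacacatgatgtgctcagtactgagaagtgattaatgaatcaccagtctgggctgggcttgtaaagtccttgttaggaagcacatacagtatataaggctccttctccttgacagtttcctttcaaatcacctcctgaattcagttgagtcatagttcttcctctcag

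A pair of short unspliced pseudogene transcripts, from GENCODE M21, follows because they were counted almost only in IEC-Ppara libraries. Gm44216 is printed whole, at 157 bases, and Gm45063 by its first 300 bases.

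Gm44216, chr6:128658110-128658266, plus strand: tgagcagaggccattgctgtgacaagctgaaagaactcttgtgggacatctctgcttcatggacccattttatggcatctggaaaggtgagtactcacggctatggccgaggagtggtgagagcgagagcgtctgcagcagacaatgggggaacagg

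Gm45063, chr6:132462674-132462973, minus strand: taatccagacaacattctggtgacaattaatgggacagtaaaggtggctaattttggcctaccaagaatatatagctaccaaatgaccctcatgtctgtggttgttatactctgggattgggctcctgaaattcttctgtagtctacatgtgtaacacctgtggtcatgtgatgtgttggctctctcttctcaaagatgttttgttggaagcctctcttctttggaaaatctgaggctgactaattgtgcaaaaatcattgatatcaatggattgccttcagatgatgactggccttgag

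Promoters were listed for 103 of the 210 members, as 131 sequences. The PPAR response element, searched as a pair of AGGTCA half-sites in the same orientation with 1 base between them on both strands, occurred in 0 of these 131 sequences and in 13 of 32851 promoters of the whole genome, a share of 0.0396%. With 1 mismatch allowed it again occurred in 0 of the members' promoters, against 0.554% of all promoters. A single AGGTCA half-site was present in 20 member promoters, or 15.3%, against 16.3% of all promoters, and the Klrb1 promoter held 1 while those of Pianp, Prh1 and Clec2h held 0. Of the members called higher below, only Pianp, Klrb1 and Prh1 had a listed promoter, so the others were not searched. At shares this low, 0 among 131 sequences would be common for any set of genes, and nothing is read from it. These letters being absent also says nothing of binding outside this 300-base window.

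The libraries held 38528522 to 50376371 counted reads. Ppara, the transgene's product, had a median of 39.4 CPM (counts per 1e6 counted reads of the library) in controls, 136 in heterozygous and 211 in homozygous mice, and its lowest IEC-Ppara library, at 107 CPM, lay above the highest control, at 47.4. Esr1, the estrogen receptor gene, a mutated human form of whose ligand-binding domain is part of CreERT2, had a control range of 2.34 to 7.84 CPM, a heterozygous range of 75.9 to 92.8 CPM and a homozygous range of 67.4 to 85.2 CPM, so that neither IEC-Ppara range overlapped the controls. The heterozygous and homozygous ranges of both genes overlapped each other, so these values check the IEC-Ppara and control labels but not the number of copies. All members together took 5062 to 5497 CPM of a control library, 4914 to 5449 CPM of a heterozygous and 4763 to 5756 CPM of a homozygous library, and these ranges overlapped.

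Of the 210 members, 123 passed a filter of at least 10 counts in at least 4 libraries and entered the fit, in which 22341 genes were tested. Fewer than 4 controls reached 10 counts for 20 of the 123, among them 6 of the members called higher below (Clec2j, Gm44216, Gm5154, Gm45063, Prh1 and Gm43984), which thus passed the filter through the IEC-Ppara libraries where they were high. Of the 123, 9 were called higher and 1 lower in heterozygous vs. control mice at an adjusted p under 0.05 in edgeR's quasi-likelihood test, where 0.197% of all genes tested were called higher and 0.00448% lower. In homozygous vs. control mice 9 were likewise called higher and 1 lower, beside 0.246% and 0.0313% of all genes. The 2 comparisons share the 6 control libraries. In all, 12 members were called in either, 8 of them in both, and since these values drew the bounds, nothing is read from the shares. The values of all 12 IEC-Ppara libraries lay above those of all 6 controls for 9 members, beside 0.197% of all genes tested, and below them for 1 member, Ybx3, beside 0.00895%.

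**Figure D1:**
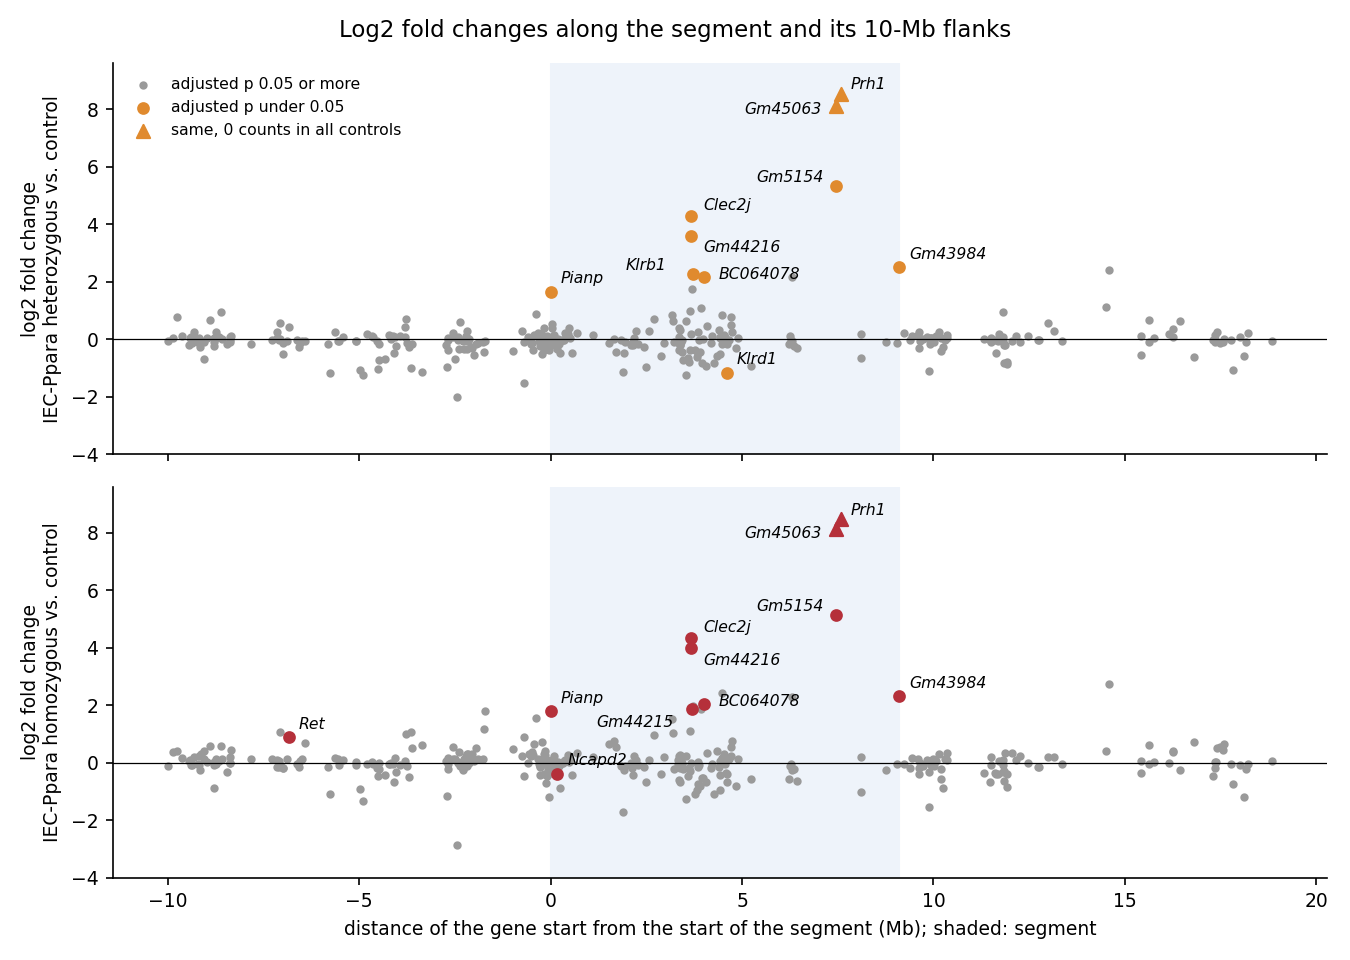
Log2 fold change of each tested gene in heterozygous (upper panel) and homozygous (lower panel) vs. control mice, against the distance in Mb of its start from the start of the segment, which is shaded. Coloured points had an adjusted p under 0.05, and triangles are genes with 0 counts in all controls, whose fitted height depends on the prior count. The members called higher lie at the bounds and in 2 clusters between them, with 1 called gene, Ret, in the flanks.

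Pianp (ENSMUSG00000030329), at chr6:124996694-125003096, encodes a membrane protein known as a ligand of the immune receptor PILRα, and is the first gene of the stretch. It had 3.48, 4.40 and 7.97 CPM in the lowest, median and highest control library, 11.4, 14.9 and 18.2 CPM in heterozygous and 12.8, 15.2 and 22.9 CPM in homozygous libraries. The groups of IEC-Ppara mice overlapped each other and neither overlapped the controls. The log2 fold change was 1.66 ± 0.18 (SE, n = 6 per group) in heterozygous and 1.80 ± 0.18 in homozygous vs. control mice. Its neighbour on the telomeric side, Zfp384, a zinc-finger transcription factor gene, had 93.5 ± 4.9 CPM (SD, n = 6) in controls, 92.8 ± 5.1 in heterozygous and 89.4 ± 5.6 in homozygous mice.

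The first cluster lay 3.66 to 4.00 Mb into the stretch, among the Klrb1 and Clec2 genes. Clec2j (ENSMUSG00000030363, chr6:128652416-128661820, minus strand) is annotated as an unprocessed pseudogene of the Clec2 family. It had 0, 0.0984 and 0.253 CPM in the lowest, median and highest control, 1.13, 2.55 and 3.48 CPM in heterozygous and 1.54, 2.80 and 3.92 CPM in homozygous libraries. No IEC-Ppara library reached down to the control range. The log2 fold changes were 4.28 ± 0.45 and 4.33 ± 0.45 in heterozygous and homozygous vs. control mice.

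Gm44216 (ENSMUSG00000107425), the processed pseudogene printed above, lies inside the span of Clec2j on the opposite strand. It had a control range of 0 to 0.217 CPM, a heterozygous range of 0.775 to 1.21 CPM and a homozygous range of 0.675 to 1.70 CPM, and the log2 fold changes were 3.60 ± 0.42 and 3.98 ± 0.42. The strand setting of the counting is not given in the sources used here, so reads of Clec2j and Gm44216 cannot be told apart by strand.

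Gm44215 (ENSMUSG00000107495, chr6:128691073-128693783) is a single-exon transcript of the class TEC, transcripts that await experimental proof. It had 0.928, 1.74 and 6.32 CPM in the lowest, median and highest control, 4.52, 7.63 and 11.1 CPM in heterozygous and 7.25, 9.10 and 10.4 CPM in homozygous libraries. The highest control stood apart from the others, the next one being at 2.37 CPM, and it alone overlapped the heterozygous range. The log2 fold changes were 1.75 ± 0.37 and 1.88 ± 0.37. The homozygous call was lost under 3 other settings and in 8 of 18 fits that left out 1 library. In heterozygous mice Gm44215 was called under 4 other settings and, at 2.34, without control 1. Of its distinct 50-base words, 44.1% also occur in transcripts of other genes, among them D10Wsu102e, so this gene's count is uncertain.

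Klrb1 (ENSMUSG00000079299, chr6:128705836-128723059) encodes a receptor of the Nkrp1 family. It had 0.359, 1.57 and 1.93 CPM in the lowest, median and highest control, 3.03, 4.66 and 16.3 CPM in heterozygous and 3.30, 5.20 and 8.56 CPM in homozygous libraries. Every IEC-Ppara library stood above every control, and the highest heterozygous library stood apart from the next, at 7.46 CPM. The log2 fold changes were 2.25 ± 0.42 and 1.96 ± 0.42. None of its 50-base words occurs in another gene's annotated transcript.

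BC064078 (ENSMUSG00000087150, chr6:128992952-129008040), a transcribed unprocessed pseudogene, closes the cluster. It had 0.907, 1.32 and 1.75 CPM in the lowest, median and highest control, 4.81, 5.98 and 6.81 CPM in heterozygous and 4.07, 5.54 and 6.77 CPM in homozygous libraries. Its spread was small in every group, and the log2 fold changes were 2.18 ± 0.16 and 2.03 ± 0.16.

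Genes that lie between these were not called. Clec2h (ENSMUSG00000030364, chr6:128662385-128677374), which encodes a Clec2 ligand made by gut epithelium and starts 565 bases after the end of Clec2j, was the most abundant member. It had 1531, 1723 and 2039 CPM in the lowest, median and highest control, 1527, 1993 and 2199 CPM in heterozygous and 1373, 1712 and 2329 CPM in homozygous libraries. The groups overlapped, the log2 fold changes being 0.19 ± 0.13 and -0.01 ± 0.13, and Clec2h made up 28.8% to 40.5% of all reads of the stretch in each library. Between Klrb1 and BC064078 lay 10 further tested members, among them Klrb1b, Klrb1c and Clec2i, and none was called in either comparison.

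The second cluster lay 7.44 to 7.57 Mb into the stretch, within the salivary gene family, and its members were nearly absent from controls. Prh1 (ENSMUSG00000059934, chr6:132569809-132572941), which encodes a proline-rich salivary protein, had 0 counts in all 6 controls. Its counts were 22, 55, 85, 53, 31 and 31 in heterozygous and 53, 52, 38, 42, 33 and 50 in homozygous libraries 1 to 6. Relative to a floor of 3 counts over the control group, which is 0.0114 CPM, it was 90.4-fold higher in heterozygous and 87.9-fold higher in homozygous mice. This floor takes each count as independent. If both reads of a pair were counted, which the even counts given under Gm5154 below point to, the lower bound on the fold would be smaller.

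Gm45063 (ENSMUSG00000108002), the processed pseudogene printed above, also had 0 counts in all 6 controls. Its counts were 46, 35, 41, 21, 42 and 23 in heterozygous and 39, 22, 24, 43, 31 and 50 in homozygous libraries. It was 67.8-fold and 68.6-fold higher, respectively, relative to the same floor, which has the same limit and allows for counting error in the controls only. None of its 50-base words occurs in an annotated transcript of another gene.

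Gm5154 (ENSMUSG00000108041, chr6:132438531-132441722), an unprocessed pseudogene that shares 26.9% of its 50-base words with other transcripts, those of Prb1 among them, had 2 counts in each of 2 controls and 0 in the other 4. It had 22 to 44 counts in heterozygous and 17 to 44 counts in homozygous libraries. Pooled over each group, the ratio to control was 45.3, with a 95% exact counting interval of 17.4 to 168, in heterozygous and 41.1, with an interval of 15.8 to 153, in homozygous mice. These intervals take each count as an independent event. Gm5582 and Gm18688, 2 other scarce members, had even counts in all 18 libraries, as when both reads of a pair are counted. Counts that come in pairs make the intervals too narrow. Reads without molecular identifiers are not independent molecules either.

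Among members too scarce for the filter, Prp2, another proline-rich protein gene, had 0 counts in all controls and 2 to 12 counts in each of the 12 IEC-Ppara libraries, 33 in all in heterozygous and 29 in homozygous mice. It was 10.8-fold and 9.51-fold higher relative to the control floor, with the limit given for Prh1. Prp2 shares 22.2% of its 50-base words with Prh1, and reads that fit both genes equally were not counted. Gm44952 had 0 counts in controls and 29 and 21 counts in heterozygous and homozygous mice, from 9 of 12 libraries, and Klra3, a Ly49 receptor gene, had 4 counts in 1 control, 12 in heterozygous and 37 in homozygous mice, with at least 1 in each IEC-Ppara library. Klra3 shares 20.7% of its 50-base words with other transcripts, those of Klra9, Klra10 and Klra11-ps among them, so its count is uncertain. These 3 were singled out after their values were seen.

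The other salivary and taste genes were close to silent. Of the 34 Tas2r, Prb, Prh, Prp, Prpmp and Smr genes listed in the stretch, 8 had a count, and apart from Prh1 and Prp2 none had more than 8 counts in the 6 libraries of any group. These families are known from salivary glands and taste buds.

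Gm43984 (ENSMUSG00000108238, chr6:134084601-134087464), a TEC transcript, is the last member. It had 0, 0.173 and 0.318 CPM in the lowest, median and highest control, 0.443, 1.05 and 1.71 CPM in heterozygous and 0.684, 0.864 and 1.09 CPM in homozygous libraries. All IEC-Ppara libraries stood above all controls, with log2 fold changes of 2.51 ± 0.44 and 2.31 ± 0.44. Both calls were lost under 3 other settings, and the homozygous one also in 2 of 18 fits that left out 1 library. Gm43984 lies within an intron-containing gene on the same strand, Etv6, an ETS-family transcriptional repressor gene, which had 64.1 ± 4.3 CPM (SD, n = 6) in controls, 57.6 ± 5.8 in heterozygous and 61.9 ± 5.9 in homozygous mice.

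**Figure D2:**
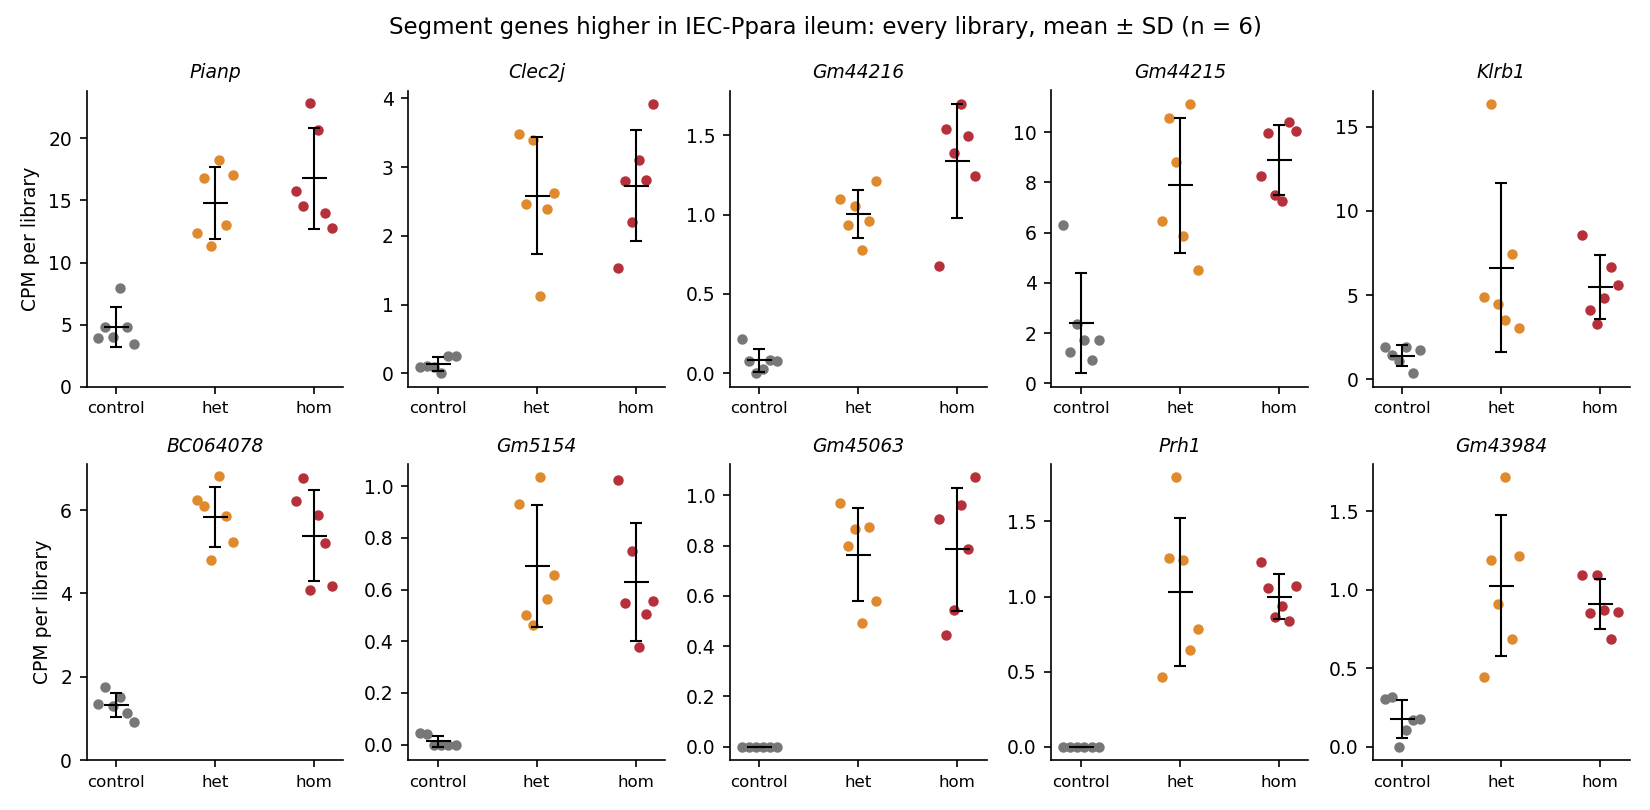
CPM of each library for the 10 members that stood higher in IEC-Ppara mice and were called in at least 1 comparison, with the mean and SD of each group of 6 (het, heterozygous; hom, homozygous). For 9 of the 10 every IEC-Ppara library lies above every control, the exception being Gm44215 with its 1 high control of 6.32 CPM.

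Of the 12 called members, 2 stood lower. Ncapd2 (ENSMUSG00000038252), a condensin subunit that compacts mitotic chromosomes, had 64.7, 67.1 and 79.0 CPM in the lowest, median and highest control, 39.8, 54.6 and 67.6 CPM in heterozygous and 50.8, 53.3 and 57.9 CPM in homozygous libraries. The homozygous libraries lay below all controls and the heterozygous ones overlapped them, at log2 fold changes of -0.33 ± 0.08 and -0.38 ± 0.08. Its call in homozygous mice was lost under 9 other settings and in 15 of 18 fits that left out 1 library. Klrd1 (ENSMUSG00000030165), which encodes CD94, the partner chain of NKG2 receptors on NK cells, had 1.12, 1.69 and 2.06 CPM in the lowest, median and highest control, 0.422, 0.671 and 1.14 CPM in heterozygous and 0.770, 1.05 and 1.34 CPM in homozygous libraries. Its log2 fold changes were -1.16 ± 0.22 and -0.68 ± 0.21, and in bulk tissue fewer cells of a type and less RNA per cell cannot be told apart. The call of Klrd1 in heterozygous mice was lost under 3 other settings and in 8 of 18 fits that left out 1 library.

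Markers of lymphocytes encoded outside the stretch also stood lower on average, without being called. The summed level of 10 NK and cytotoxic markers, such as Ncr1, Gzma and Prf1, had a control range of 29.3 to 84.2 CPM, a heterozygous range of 25.8 to 46.7 CPM and a homozygous range of 27.5 to 41.2 CPM, and none of the 10 was at 0 in all libraries. The median log2 fold change of these 10 was -0.56 in both comparisons, and none was called. The 10 T-cell markers summed to 37.9 to 102 CPM, 26.6 to 71.8 CPM and 28.8 to 40.4 CPM in the same order of groups. The 10 B-cell markers summed to 18.4 to 567 CPM, 15.2 to 321 CPM and 12.6 to 94.6 CPM. The medians of these sums were close, at 22.3, 20.5 and 16.0 CPM, and the high values were those of control 2, control 3 and heterozygous mouse 2, at 567, 450 and 321 CPM. The median log2 fold changes of -1.36 and -2.78 for B-cell and of -0.73 and -0.94 for T-cell markers in heterozygous and homozygous vs. control mice include these libraries, and none of either list was called. Without these 3 libraries, an alternative chosen after seeing the data, 8 members were called higher and 0 lower in each comparison with control, beside 0.125% and 0.197% of all genes called higher, and Klrd1 was no longer called, at -1.24 ± 0.24 in heterozygous mice. Homozygous mouse 1, at 94.6 CPM of B-cell markers against a median of 16.0 CPM in its group, was also high. It lay under the limit of 100 CPM and stayed in this fit. The part of lymphocytes in the values of Klrd1 and the other receptor genes was not tested. Enterocyte markers had a summed control range of 22275 to 30378 CPM, a heterozygous range of 23466 to 28843 CPM and a homozygous range of 21023 to 27349 CPM.

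All 29 NK receptor genes (Klr) of the stretch had a count and 15 passed the filter, of which Klrb1 was called higher and Klrd1 lower in heterozygous vs. control mice and none was called in homozygous vs. control mice. The call of Klrb1 depended on the settings. In heterozygous mice it was lost under 4 other settings (limma-voom, the 12 libraries compared, the replicate block, and the 3 libraries high in B-cell markers left out, at 1.71 ± 0.43) and in 3 of 18 fits that left out 1 library, and in homozygous mice it was gained under 5 settings, DESeq2 among them, at log2 fold changes of 1.97 to 2.19. The 15 genes had a median log2 fold change of -0.17 and -0.39, beside -0.01 and -0.01 over all genes tested, with 4 and 5 of the 15 above 0. Klrk1, which encodes the activating receptor NKG2D, had 1.77 ± 0.74 CPM (SD, n = 6) in controls, 1.56 ± 0.45 in heterozygous and 1.36 ± 0.32 in homozygous mice. Klrb1b, an inhibitory receptor of the Nkrp1 family, had 2.40 ± 0.72, 1.54 ± 0.65 and 1.27 ± 0.32 CPM in the same order. Klrk1 had log2 fold changes of -0.16 ± 0.26 and -0.39 ± 0.26 in heterozygous and homozygous vs. control mice. Without the 3 libraries high in B-cell markers these were 0.08 ± 0.25 and -0.03 ± 0.24. Klrb1b had -0.63 ± 0.25 and -0.93 ± 0.26, and -0.62 ± 0.25 and -0.71 ± 0.24 without them. Klrb1 thus stood above control where its paralogs Klrb1a, Klrb1b, Klrb1c and Klrb1f had log2 fold changes between -1.07 and -0.19 over both comparisons.

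Of the 8 Clec2 genes 5 passed the filter, Clec2j through its IEC-Ppara libraries, and Clec2j was called higher in both comparisons. Per transcript length, Clec2h had 646 ± 65 FPKM (SD, n = 6) in controls, and next among them were Clec2d, the ligand of the inhibitory receptor Klrb1b, at 37.9 ± 2.5 FPKM and Clec2e at 23.4 ± 2.0 FPKM. Clec2d stayed within overlapping ranges, with log2 fold changes of -0.12 ± 0.10 and -0.18 ± 0.10. Clec2e had a control range of 44.0 to 54.8 CPM, a heterozygous range of 51.6 to 85.9 CPM and a homozygous range of 45.5 to 78.3 CPM, at log2 fold changes of 0.47 ± 0.16 and 0.35 ± 0.15. Clec2i had a control range of 5.32 to 12.9 CPM, a heterozygous range of 5.10 to 6.72 CPM and a homozygous range of 3.39 to 5.30 CPM, all homozygous ones below all controls, at -0.45 ± 0.18 and -0.82 ± 0.18. Its highest controls were control 2 and control 3, at 12.9 and 9.64 CPM, which were also high in B-cell markers. Leaving out single libraries moved its log2 fold changes over -0.54 to -0.28 and -0.92 to -0.66.

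**Figure D3:**
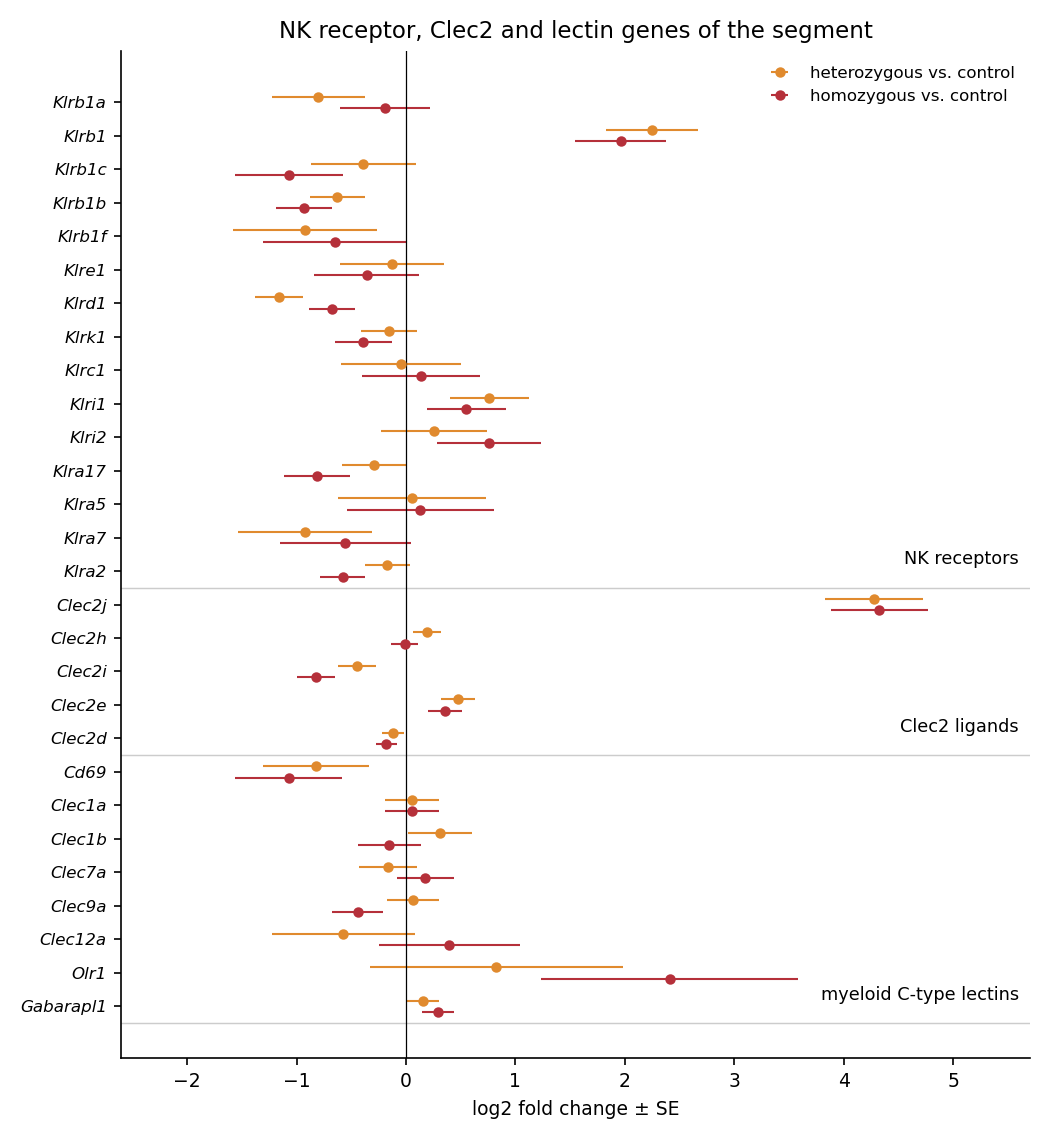
Log2 fold change with its SE for the tested NK receptor, Clec2 and lectin genes in heterozygous and homozygous vs. control mice (n = 6 per group). Clec2j, at 4.28 and 4.33, and Klrb1, at 2.25 and 1.96, stand apart on the right, and Olr1 has the widest error.

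Of the 10 lectin genes of myeloid cells and their neighbours 8 passed the filter and none was called. Olr1, the receptor for oxidized LDL, varied most, with a control range of 0 to 2.47 CPM, a heterozygous range of 0.0914 to 5.05 CPM and a homozygous range of 0.486 to 15.5 CPM, while Cd69, an early activation marker of lymphocytes, had log2 fold changes of -0.82 ± 0.49 and -1.07 ± 0.49. Its high libraries were control 2, control 3 and heterozygous mouse 2, at 4.53, 4.17 and 3.09 CPM, and without these 3 the log2 fold changes were -0.32 ± 0.35 and -0.08 ± 0.33. All 9 genes around the TNF receptors passed the filter and none was called. Tnfrsf1a, the TNF receptor, had 173 ± 7.0, 166 ± 15 and 180 ± 12 CPM in control, heterozygous and homozygous mice. Ltbr, the lymphotoxin receptor, had 132 ± 13, 126 ± 10 and 130 ± 6.7 CPM.

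All 10 genes of the cell cycle, DNA repair and growth passed, with a median log2 fold change of -0.12 in both comparisons, and only Ncapd2, in homozygous mice, was called, with the loss under other settings given above. Gapdh, a glycolytic enzyme gene often used as a reference in quantitative PCR, lies in the stretch too. It had 666, 712 and 758 CPM in the lowest, median and highest control, 540, 658 and 709 CPM in heterozygous and 613, 667 and 726 CPM in homozygous libraries, at log2 fold changes of -0.14 ± 0.09 and -0.09 ± 0.09. Ybx3, a cold-shock domain protein that binds RNA, had a control range of 173 to 194 CPM, a heterozygous range of 144 to 163 CPM and a homozygous range of 149 to 170 CPM, below control in all 12 but not called, at -0.24 ± 0.05 and -0.21 ± 0.05.

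By FPKM the 8 most abundant members were Clec2h, Gapdh, Fkbp4, Tnfrsf1a, Ltbr, Ybx3, Cd9 and Chd4. Fkbp4, a chaperone of steroid receptors, had 98.2 ± 10 FPKM (SD, n = 6) in controls and 98.6 ± 15 FPKM in homozygous mice, with log2 fold changes of -0.02 ± 0.10 and 0.00 ± 0.10 in heterozygous and homozygous vs. control mice. Chd4, a chromatin remodeller, had 36.5 ± 3.4, 35.2 ± 3.7 and 37.2 ± 2.1 FPKM, and Cd9, a tetraspanin, 47.8 ± 6.8, 52.7 ± 7.8 and 57.9 ± 6.5 FPKM. None of the 8 was called.

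Some scarce members had log2 fold changes beyond 1 in both comparisons without being called, and are named after their values were seen. Gm44958, a processed transcript, had 2.17 and 2.29, Gm44223, an unprocessed pseudogene, 1.07 and 1.88, A2ml1, a protease inhibitor gene, -1.26 and -1.24, and Dyrk4, a protein kinase gene, -1.15 and -1.71. Vwf, which encodes von Willebrand factor of endothelium, had log2 fold changes of -0.49 ± 0.14 and -0.42 ± 0.14.

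The 8 tested genes for potassium channels and neuronal proteins had a median log2 fold change of -0.05 in heterozygous and 0.45 in homozygous vs. control mice, with none called. The 10 smooth muscle markers had median log2 fold changes of -0.19 and 0.57. The sum of these markers had a control range of 666 to 6197 CPM, a heterozygous range of 832 to 4556 CPM and a homozygous range of 4172 to 9819 CPM, and its part in the values was not tested.

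Homozygous and heterozygous mice were then compared directly, a comparison that the choice of the members did not use. No member of the 123 differed at an adjusted p under 0.05 in edgeR's quasi-likelihood test, beside 0% of all genes tested, and 6 members had an unadjusted p under 0.05, among 1550 genes in the whole table. DESeq2 and limma-voom called 0 members as well. For Pianp the log2 difference of homozygous from heterozygous mice was 0.15, with a 95% interval of -0.23 to 0.52. For Clec2j it was 0.05, with an interval of -0.71 to 0.81, for Klrb1 -0.29, with an interval of -1.14 to 0.56, and for BC064078 -0.15, with an interval of -0.47 to 0.18. For Prh1 it was -0.07, with an interval of -0.70 to 0.56, and for Gm43984 -0.20, with an interval of -1.04 to 0.64. The intervals of Pianp and BC064078 leave room for little more than 0.5 on the log2 scale, and the others for larger differences in either direction. In the fits that left out 1 library, this log2 difference ran from 0.31 to 0.52 for Gm44216 and from 0.01 to 0.30 for Gm44215. It ran from -0.37 to -0.03 for Gm5154 and from -0.12 to 0.11 for Gm45063, and no member was called in these fits.

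The lowest unadjusted p was that of Kcna6, a voltage-gated potassium channel gene, which had a control range of 0.302 to 1.89 CPM, a heterozygous range of 0.359 to 1.35 CPM and a homozygous range of 1.31 to 2.71 CPM. Its log2 difference was 0.97 ± 0.33 with an adjusted p of 0.655 in edgeR's quasi-likelihood test, so it failed the correction. For the 2 lower members the difference was -0.04 ± 0.08 at Ncapd2 and 0.48 ± 0.22 at Klrd1, the latter with an adjusted p of 0.713. For Ppara itself the log2 difference was 0.58, with an adjusted p of 0.619 in the same test.

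**Figure D4:**
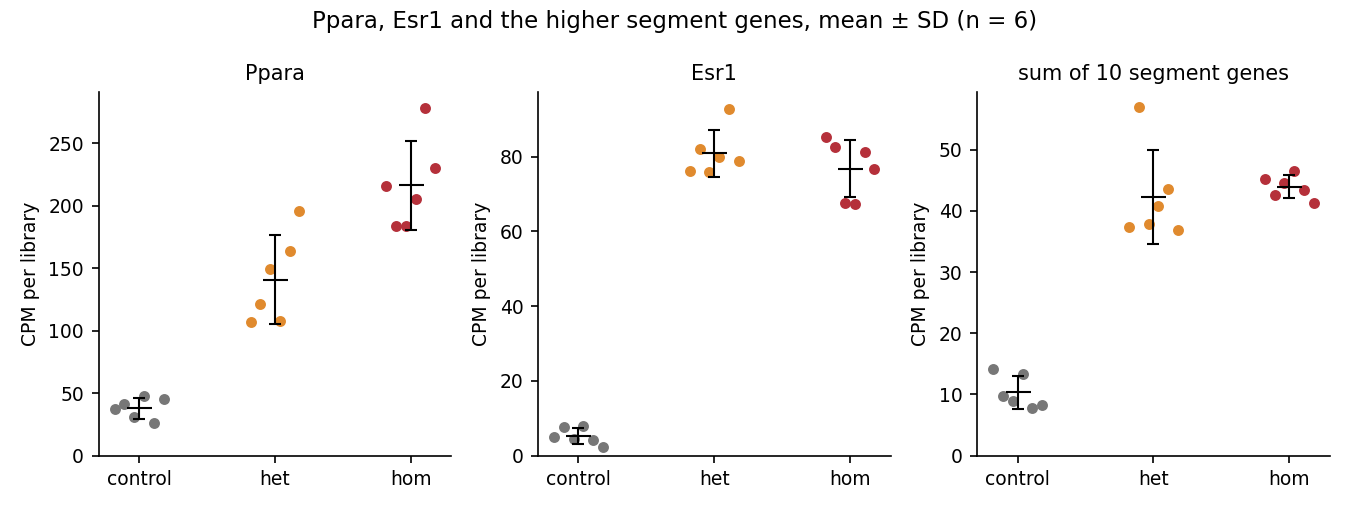
CPM per library of Ppara, of Esr1 and of the sum over the 10 higher called members, with the mean and SD of each group of 6. The summed members had a control range of 7.72 to 14.2 CPM, a heterozygous range of 36.9 to 57.0 CPM and a homozygous range of 41.3 to 46.6 CPM.

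Between the sexes 1 of the 123 members was called, beside 0.0761% of all genes tested. Gm44009 (ENSMUSG00000107503, chr6:128585625-128588025), a lincRNA beside Klrb1a, was higher in females by 1.45 ± 0.24 on the log2 scale, with an adjusted p of 0.0140 in edgeR's quasi-likelihood test. It had 0.527 to 1.22 CPM in the 7 females and 0.127 to 0.576 CPM in the 11 males. Within each genotype the sexes did not overlap, at 0.753 to 1.18 vs. 0.401 to 0.576 CPM in controls, 0.891 to 0.929 vs. 0.127 to 0.353 CPM in heterozygous and 0.527 to 1.22 vs. 0.227 to 0.442 CPM in homozygous mice. The difference of IEC-Ppara from control depended on sex for no member in edgeR's test of the interaction, beside 0% of all genes tested, with 12 of the 123 members and 1204 of all 22341 genes at an unadjusted p under 0.05.

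Along the stretch, called genes lay singly or in groups, parted by runs of uncalled genes. Between Ncapd2 and Clec2j lay 55 tested members over 3461 kb with none called, and between Klrd1 and Gm5154 lay 15 over 2840 kb. Few genes were measurable in the taste and salivary region: of the 48 genes listed between 7 and 8 Mb into it, 11 had a count and 3 passed the filter, and those 3 were Gm5154, Gm45063 and Prh1, which passed it only through their counts in IEC-Ppara libraries, so that nothing is read from all 3 being called. The median log2 fold change of the 123 members was -0.03 in heterozygous and -0.01 in homozygous vs. control mice, beside -0.01 in both for all genes, while the median size regardless of sign was 0.25 in both, beside 0.11 and 0.13 for all genes. The median size was also above that of all genes where no member was called, at 0.20 beside 0.13 in homozygous vs. heterozygous mice and 0.29 beside 0.20 for the interaction with sex.

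In the flanks, which reach 10 Mb to either side, 149 genes below and 76 above the stretch were tested. None was called in heterozygous vs. control mice in edgeR's test, where 8 and 5 had an unadjusted p under 0.05 beside 1065 of all 22341 genes, nor by DESeq2 or limma-voom. In homozygous vs. control mice 10 and 8 had an unadjusted p under 0.05, beside 1684 of all genes, and 1 was called, Ret, the receptor tyrosine kinase of GDNF ligands in enteric neurons, at chr6:118151745-118197718, with 17.0 CPM on average in controls, 22.0 in heterozygous and 31.5 in homozygous mice and log2 fold changes of 0.41 and 0.89. The median size of the log2 fold change was 0.12 and 0.14 in the lower and 0.11 and 0.20 in the upper flank, in heterozygous and homozygous vs. control mice.

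At the bounds, the last tested genes outside the lower one were Cops7a, a COP9 signalosome subunit gene, and Gm23851. Cops7a had 90.2, 92.1 and 89.6 CPM on average in control, heterozygous and homozygous mice, and Gm23851 had 0.227, 0.170 and 0.0992 CPM. Beyond the upper bound, Gm17089, an antisense RNA within Etv6, had 0.699, 0.804 and 0.682 CPM, and Bcl2l14, of the BCL2 family, had 27.8, 27.0 and 24.5 CPM. Inside, the tested members next to the called ends were Zfp384, at log2 fold changes of 0.02 and -0.07, and Etv6, at -0.13 and -0.06. Farther out, Pik3c2g, a lipid kinase gene chosen here after its values were seen, averaged 0.134 CPM in controls, 0.727 in heterozygous and 0.927 in homozygous mice without being called.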

How the data were processed

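The authors sequenced poly-A RNA of whole-thickness ileum in paired 150-base reads, aligned it with STAR 2.7.9a to GRCm38 with Ensembl annotation and counted uniquely aligned, unambiguous reads per gene with featureCounts 2.0.3. The deposited counts are unnormalized, the deposited CPM divide them by the library total, and the deposited FPKM also divide them by gene length. FPKM served only to compare levels between genes.

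Counts were fitted with edgeR 4.0.16 (glmQLFit and glmQLFTest, TMM, all 18 libraries, no covariates) in R 4.3.3 after keeping genes of any biotype with at least 10 counts in at least 4 libraries, and p-values received Benjamini-Hochberg adjustment over all 22341 genes. The study kept protein-coding genes above 3 CPM, which is given among the alternatives. Standard errors were taken from the F statistic, and 95% intervals use 15 residual degrees of freedom. The fit was tested on simulated data. Alternatives were DESeq2 1.42.0, limma-voom (limma 3.58.1), other scalings and filters, sex, a replicate block, leaving out each library and, added after seeing the data, leaving out 3 libraries with over 100 CPM of summed B-cell markers. Named genes were the members called in either IEC-Ppara group, the most abundant members, those at the bounds and the gene families. The members and gene lists were chosen with earlier results of these data known. Each library is 1 mouse. No 2 libraries held identical counts, and within groups libraries differed by more than sampling noise.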

Additional observations from a re-analysis of the deposited data

Results flagged for a closer look

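Among 22 members checked in each group of 6, a single library stood apart from its group in 6 cases by Dixon's criterion for 6 values, a gap of over 0.625 of the range, which chance meets in about 1 group of 20. Pianp had 7.97 CPM in control 4, where the next control had 4.79. Gm44215 had 6.32 CPM in control 1, where the next had 2.37. Klrb1 had 16.3 CPM in heterozygous mouse 2, where the next had 7.46, and Klrb1b had 2.79 CPM in the same mouse, where the next had 1.57. Klrk1 had 1.98 CPM in homozygous mouse 3, where the next had 1.41. Gm44009 had 1.22 CPM in homozygous mouse 5, a female, where the next had 0.527.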

How the results depend on the processing

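Pianp, Clec2j, Gm44216, BC064078, Gm5154, Gm45063 and Prh1 were called higher in both comparisons with control under every fit that tested them. As the stretch was chosen on these same values, nothing is read from the repeat of these calls. Above 3 CPM, 60 members of any biotype were tested and 4 and 5 called higher in heterozygous and homozygous vs. control mice, beside 0.306% and 0.408% of all genes, and 50 protein-coding members were tested and 2 and 1 called, beside 0.293% and 0.364%. Of these, Clec2j, Klrb1, BC064078 and Gm44215 passed the filter through their IEC-Ppara libraries, so nothing is read from their calls. The highest controls of Clec2j, Klrb1 and BC064078 were at 0.253, 1.93 and 1.75 CPM. For Gm44215 only control 1, at 6.32 CPM, exceeded 3 CPM. Without a filter Prp2 was called as well. Lower calls were unstable. In heterozygous vs. control mice DESeq2 gave 4 and library size alone 2, beside 0.0492% and 0.00895% of all genes called lower. The fit on 12 libraries, the replicate block and both filters above 3 CPM gave 0, beside 0% of all genes. In homozygous vs. control mice DESeq2 gave 3, beside 0.179% of all genes called lower. No member was called lower with DESeq2 size factors, library size alone, limma-voom, no filter, the replicate block, sex as a covariate and both filters above 3 CPM. With these settings 0.0134% to 0.0438% of all genes were called lower. In the flanks DESeq2 called 3 genes higher and 1 lower in homozygous vs. control mice. Over all genes DESeq2 called 88 and 146, and 9 for homozygous vs. heterozygous mice, where library size alone called 1. Without the 3 libraries high in B-cell markers, an alternative chosen after seeing the data, 0 members were called lower in either comparison and 28 genes were called in all in heterozygous vs. control mice. The calls of Klrb1, Klrd1, Ncapd2 and Gm44215 were lost, at 1.71, -1.24, -0.36 and 1.71. The cause of these differences was not tested.

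Leaving out each library in turn left 8 to 11 members higher and 0 to 2 lower in heterozygous, and 7 to 10 higher and 0 to 2 lower in homozygous vs. control mice, with 34 to 56 and 51 to 73 genes called in all. Between homozygous and heterozygous mice 0 members and 0 to 2 genes in all were called, and in the flanks 0 genes for heterozygous and 1 higher and 0 lower for homozygous vs. control mice. The call of Klrb1 in heterozygous mice was lost without control 2, control 3 or heterozygous mouse 5, its log2 fold change ranging from 1.80 to 2.40 over the 18 fits. That of Gm43984 in homozygous mice was lost without control 4 or control 5, at 2.06 to 2.53. Calls were lost in 8 of 18 fits for Gm44215, at 1.72 to 2.48, in 8 for Klrd1, at -1.31 to -1.04, and in 15 for Ncapd2, at -0.40 to -0.34. Calls were also gained. Klrb1 was called higher in homozygous vs. control mice with DESeq2, no filter, the 12 libraries compared, sex as a covariate and the filter of any biotype above 3 CPM, at 1.97 to 2.19, and in 3 of the 18 fits that left out a library (without heterozygous mouse 2, heterozygous mouse 6 or homozygous mouse 3). Gm44215 was called higher in heterozygous vs. control mice with DESeq2, limma-voom, no filter and sex as a covariate, at 1.75 to 2.01, and without control 1, at 2.34. Ybx3 and Ncapd2 in heterozygous mice and Clec2i in homozygous mice were called lower under DESeq2, and Ybx3 with library size alone too. DESeq2 also called Rad51ap1 lower in heterozygous mice, at -0.47. In homozygous mice it called Gm45769 lower, at -1.01, and Gm44420 higher, at 1.10. The call of Klrb1 in heterozygous mice was lost with limma-voom, 12 libraries and the replicate block, and so were both calls of Gm43984. Over the fits that left out a library, no called difference of the 23 named genes changed sign. Of the differences that were not called, 3 in heterozygous and 2 in homozygous vs. control mice took both signs, as did 7 between homozygous and heterozygous mice, among them that of Klrb1, which ran from -0.46 to 0.18, the latter without heterozygous mouse 2.

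Replicate numbers do not pair the mice: 18 same-numbered pairs had correlations of their deviations from -0.407 to 0.415, and 1 of 18 libraries correlated best with its own number. With the number as a replicate block 7 members were called higher and 0 lower in each comparison with control, beside 0.134% and 0.224% of all genes called higher. Scaling CPM by TMM moved none of the 69 means checked by more than its SD. Members at 1 CPM or less rest on few reads per library.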
